A study of Mus musculus with 8 samples.

Results

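CC chemokines are small secreted proteins that attract leukocytes by engaging G protein-coupled CC receptors. Ccl2, Ccl7, Ccl8, Ccl11 and Ccl12 belong to the monocyte chemoattractant group and its close relatives, Ccl3, Ccl4 and Ccl9 are inflammatory chemokines of the macrophage inflammatory protein group, and Ccr1 and Ccr2 are receptors that bind members of these groups. Ccr2 is the classical receptor for recruitment of monocytes out of the bone marrow, and fibroblasts and macrophages of tumours are known sources of its ligands. These 10 genes, chosen by symbol, were followed among the 20275 gene symbols counted in single sorted cells of mouse colon tumours.

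The cells were profiled by SORT-seq, which sorts 1 cell into each well of a 384-well plate and counts 3′ ends of transcripts with unique molecular identifiers, so that a level, given here as transcripts per 1000000 transcripts of the class on a plate (CPM), needs no scaling to gene length. Tumours were grown in the cecum from transplanted colon tumour organoids. Of the 8 plates, each from 1 mouse, 4 came from FibCtrl and 4 from FibΔZeb1 recipients, which are age-matched littermates of both sexes (the age is not given in the sources used here). FibΔZeb1 mice carried floxed Zeb1 alleles and a tamoxifen-inducible Cre transgene, FibCtrl mice lacked the Cre, and both received tamoxifen in the diet. The sample labels name the transgene Col1a1Cre-ERT2 whereas the study's methods name Col1a2-CreERT2, and deletion is limited to cells in which that collagen promoter is active. Immune cells, tumour cells and cells negative for EPCAM, CD45 and CD31 were sorted by separate gates, so the numbers of wells per class were set partly by the sort and were not compared.

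Of 3072 wells, 1831 passed the filters, with 98 to 294 per plate. FibCtrl replicate 2 stood apart in depth, with 981881 cell transcripts against 2501608 to 5905188 on the other plates and 28.2% of its counts on spike-in RNA against 5.81% to 12.4%. Wells were clustered without any chemokine or chemokine receptor gene, and clusters were named from marker genes. This gave 150 fibroblast, 174 macrophage, 255 neutrophil and 142 T cell wells, and a plate entered a class only with at least 10 wells. For fibroblasts this left replicates 1 and 4 of FibCtrl against replicates 1, 3 and 4 of FibΔZeb1, and for macrophages replicates 1, 3 and 4 of each genotype. Neutrophils were compared on FibCtrl replicates 2, 3 and 4 and T cells on FibCtrl replicates 1, 3 and 4, in both cases against all 4 FibΔZeb1 plates. Classes are ranked below among these 4 and epithelial wells. Levels in pericyte or smooth muscle, mesothelial, NK or innate lymphoid and mast cell wells were not described. The markers fitted the names: the 11 fibroblast markers summed to 67007 to 96295 CPM in fibroblast wells, and the 9 macrophage markers found summed to 5280 to 9641 in macrophage wells. The 10 neutrophil markers summed to 19006 to 106460 in neutrophil wells and the 7 T cell markers found to 2254 to 3686 in T cell wells. Fibroblast markers also stood at 623 to 6901 CPM in the 3 immune classes, and their part in the levels of fibroblast genes there was not tested. Zeb1 itself stood at 91.6 and 83.4 CPM in fibroblast wells of FibCtrl replicates 1 and 4 and at 43.6, 48.0 and 27.8 in those of FibΔZeb1 replicates 1, 3 and 4. The counted 3′ end may lie outside the deleted part, so these values do not check the deletion.

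All 8 chemokine genes lie on mouse chromosome 11 (GRCm38, GENCODE M21). Ccl2, Ccl7, Ccl11, Ccl12 and Ccl8 follow each other on the plus strand within 81.2 kb, from position 82035571 to 82116799. Ccl9 and Ccl3 on the minus strand and Ccl4 on the plus strand occupy a second block of 91.8 kb, from 83572919 to 83664683. The receptor genes Ccr1, on the minus strand, and Ccr2, on the plus strand, lie together on chromosome 9, from 123962124 to 124113557. Neighbours within a block therefore share a chromosome segment but not always a cell class. RefSeq promoter sequences (GRCm38.p6) were at hand for Ccl8, Ccl12, Ccl9, Ccl3, Ccr1 and Ccr2 but not for Ccl2, Ccl7, Ccl11 and Ccl4. The 100 bases before the start are shown for Ccl8 and Ccl12, neighbours whose mean level was highest in macrophages for both. They are also shown for Ccl9 and Ccl3, a pair from the other block whose leading classes differed. The letters TATAAA are in capitals.
Ccl8 (chr11:82115085-82115184, plus strand): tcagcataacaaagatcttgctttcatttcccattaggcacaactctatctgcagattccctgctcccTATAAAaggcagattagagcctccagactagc
Ccl12 (chr11:82101745-82101844, plus strand): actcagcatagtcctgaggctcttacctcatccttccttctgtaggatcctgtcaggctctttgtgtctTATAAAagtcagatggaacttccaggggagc
Ccl9 (chr11:83578637-83578736, minus strand): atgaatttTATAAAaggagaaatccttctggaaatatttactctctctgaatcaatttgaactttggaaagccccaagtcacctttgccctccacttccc
Ccl3 (chr11:83649379-83649478, minus strand): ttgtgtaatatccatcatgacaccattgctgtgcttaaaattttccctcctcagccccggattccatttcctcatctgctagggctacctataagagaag
TATAAA on the sense strand began 32 bases before the start in Ccl8, 31 bases before it in Ccl12 and 92 bases before it in Ccl9, and was not among these letters in Ccl3, Ccr1 and Ccr2. These windows follow RefSeq starts, which differ from GENCODE for Ccl3 (window to 83649379, GENCODE start 83649355). The Ccr2 window (124102083 to 124102182) lies inside the GENCODE gene, which starts at 124101950. Other TATA-like letters were not searched. The same window held TATAAA in 3.80% of 32851 promoters. Aligned without gaps on TATAAA with 40 bases to each side, Ccl8 and Ccl12 shared 31 of 86 bases, while Ccl12 and Ccl9, from different blocks, shared 34 and Ccl8 and Ccl9 shared 23. Within the full 300 bases, from 250 before to 50 after the start, TGANTCA on either strand was found in 1 of the 6 members and in 7.81% of all promoters.

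Ccl2 and Ccl7, ligands of Ccr2, were highest in fibroblast and macrophage wells among the classes compared. In fibroblasts, Ccl2 stood at 798 and 569 CPM on FibCtrl replicates 1 and 4 and at 686, 135 and 419 on FibΔZeb1 replicates 1, 3 and 4. In macrophages, it stood at 578, 619 and 2138 on FibCtrl replicates 1, 3 and 4 and at 1280, 1465 and 613 on the same FibΔZeb1 replicates. Macrophages thus had the higher mean, 1115 ± 630 (SD, n = 6) against 521 ± 257 (SD, n = 5), and were above fibroblasts on 4 of the 5 plates that held both, though the ranges overlapped. Neutrophils (85.3 ± 52.4, SD, n = 7) and T cells (54.3 ± 51.4, SD, n = 7) followed at levels whose ranges overlapped each other and that of tumour epithelial wells, which served as the background at 30.0 ± 25.1 (SD, n = 8). The background was uneven, with epithelial Ccl2 from 8.76 to 80.4 and the highest value on FibCtrl replicate 1, the plate with the most fibroblast wells.

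For Ccl7 the order of the leading classes was not resolved. Fibroblasts averaged 566 ± 247 (SD, n = 5) and macrophages 478 ± 248 (SD, n = 6), and fibroblasts were the higher on 2 of 5 plates. Neutrophils averaged 80.1 ± 90.4 (SD, n = 7) and T cells 20.9 ± 17.8 (SD, n = 7), and the T cell range overlapped the epithelial background (17.4 ± 21.4, SD, n = 8). Ccl7 in fibroblasts was 839 and 703 on FibCtrl, and it was 663, 236 and 387 on FibΔZeb1 (replicates in the order above). On these plates the lowest FibCtrl and the highest FibΔZeb1 value lay close together. Of the plates left out for few wells, FibCtrl replicate 3 stood at 110 in 9 wells, below all of these FibΔZeb1 plates. FibCtrl replicate 2 stood at 756 in 3 wells and FibΔZeb1 replicate 2 at 58.6 in 6 wells. Among fibroblast wells, 81 held both Ccl2 and Ccl7, which was 81.0% of the 100 wells with Ccl2 and 86.2% of the 94 wells with Ccl7. Across all sums of class and plate (40 sums over 10 classes, 12969 genes), Ccl7 was also the gene whose level was most like that of Ccl2 (Pearson r = 0.84, a description across sums that share plates), followed by Cd302, Dse, Zeb2 and Lrp1 (r = 0.77 to 0.80).

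Among the classes compared, Ccl11 (eotaxin), which attracts eosinophils through Ccr3, was found mainly in fibroblast wells. It was higher there than in macrophages on 5 of 5 plates, with means of 231 ± 201 (SD, n = 5) and 11.1 ± 18.9 (SD, n = 6). Neutrophils, T cells and epithelial wells averaged 6.19, 4.26 and 4.94 and could not be ordered. In fibroblasts, 404 and 347 transcripts on FibCtrl replicates 1 and 4 gave 390 and 499 CPM, whereas 64, 74 and 12 transcripts on FibΔZeb1 replicates 1, 3 and 4 gave 93.2, 132 and 41.7. These FibΔZeb1 plates were below both FibCtrl plates, but the share of all genes that split in this way on so few plates was not counted. The plates left out for few wells did not follow this split, since FibCtrl replicate 3 had 0 transcripts in 9 wells and FibΔZeb1 replicate 2 stood at 485 in 6 wells, while FibCtrl replicate 2 stood at 289 in 3 wells. Of the 9 wells of FibCtrl replicate 3, 8 belonged to a shallow fibroblast cluster led by Inhba and Spp1. That cluster also held 13 of 49 and 3 of 26 wells on FibCtrl replicates 1 and 4. On FibΔZeb1 replicates 1, 3 and 4 it held 8 of 24, 7 of 17 and 6 of 16. Its part in the Ccl11 levels was not tested.

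Ccl8, another monocyte chemoattractant, was low and found in few wells. Fibroblasts on FibCtrl replicates 1 and 4 held 38 and 46 transcripts in 11 and 13 wells, or 36.6 and 66.2 CPM. On FibΔZeb1 replicates 1, 3 and 4 they held 1, 1 and 2 transcripts, or 1.45, 1.78 and 6.95 CPM. FibCtrl replicates 2 and 3, left out with 3 and 9 wells, held 0 Ccl8 transcripts, as did FibΔZeb1 replicate 2 with 6 wells, which allows up to 37.5, 41.0 and 43.97 CPM at 3 counts. The 3 FibΔZeb1 values kept are below the level that 3 counts would give on their plates (4.36, 5.33 and 10.4). In macrophages, Ccl8 stood at 441, 46.4 and 94.8 on FibCtrl replicates 1, 3 and 4 and at 38.1, 0 and 0 on FibΔZeb1 replicates 1, 3 and 4. Single wells supplied most of it, with 49 of 54 transcripts on FibCtrl replicate 1 and 24 of 25 on FibCtrl replicate 4. The macrophage mean was 103 over all 6 plates and 35.9 without FibCtrl replicate 1, where fibroblast markers in macrophage wells were also highest (5570 CPM against 623 to 2603 on the other plates), and the part of those markers in the level was not tested. Neutrophils and T cells averaged 3.97 and 1.45 for Ccl8, with 0 transcripts on 5 of 7 plates in each class. The genes most like Ccl8 were Hebp1, Rab3il1, Tnfsf12, Fcgrt and P2ry14 (r = 0.61 to 0.65 over the same 40 sums).

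Ccl12, whose gene is the neighbour of Ccl8, was found mainly in macrophage wells. They held it at 130, 164 and 285 CPM on FibCtrl replicates 1, 3 and 4 and at 203, 158 and 6.72 on FibΔZeb1 replicates 1, 3 and 4. FibΔZeb1 replicate 4 stood apart with 1 transcript. Macrophages were above neutrophils on 5 of 5 plates, while the means of neutrophils, T cells, fibroblasts and epithelial wells lay between 0.775 and 3.20 and were not separated. No Ccl12 transcript was counted in fibroblasts of FibCtrl replicates 1 and 4, which allows levels of up to 2.89 and 4.31 CPM at 3 counts. Fibroblasts of FibΔZeb1 replicates 1, 3 and 4 held 6, 1 and 0 transcripts, or 8.71, 1.78 and 0 CPM.

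**Figure D1:**
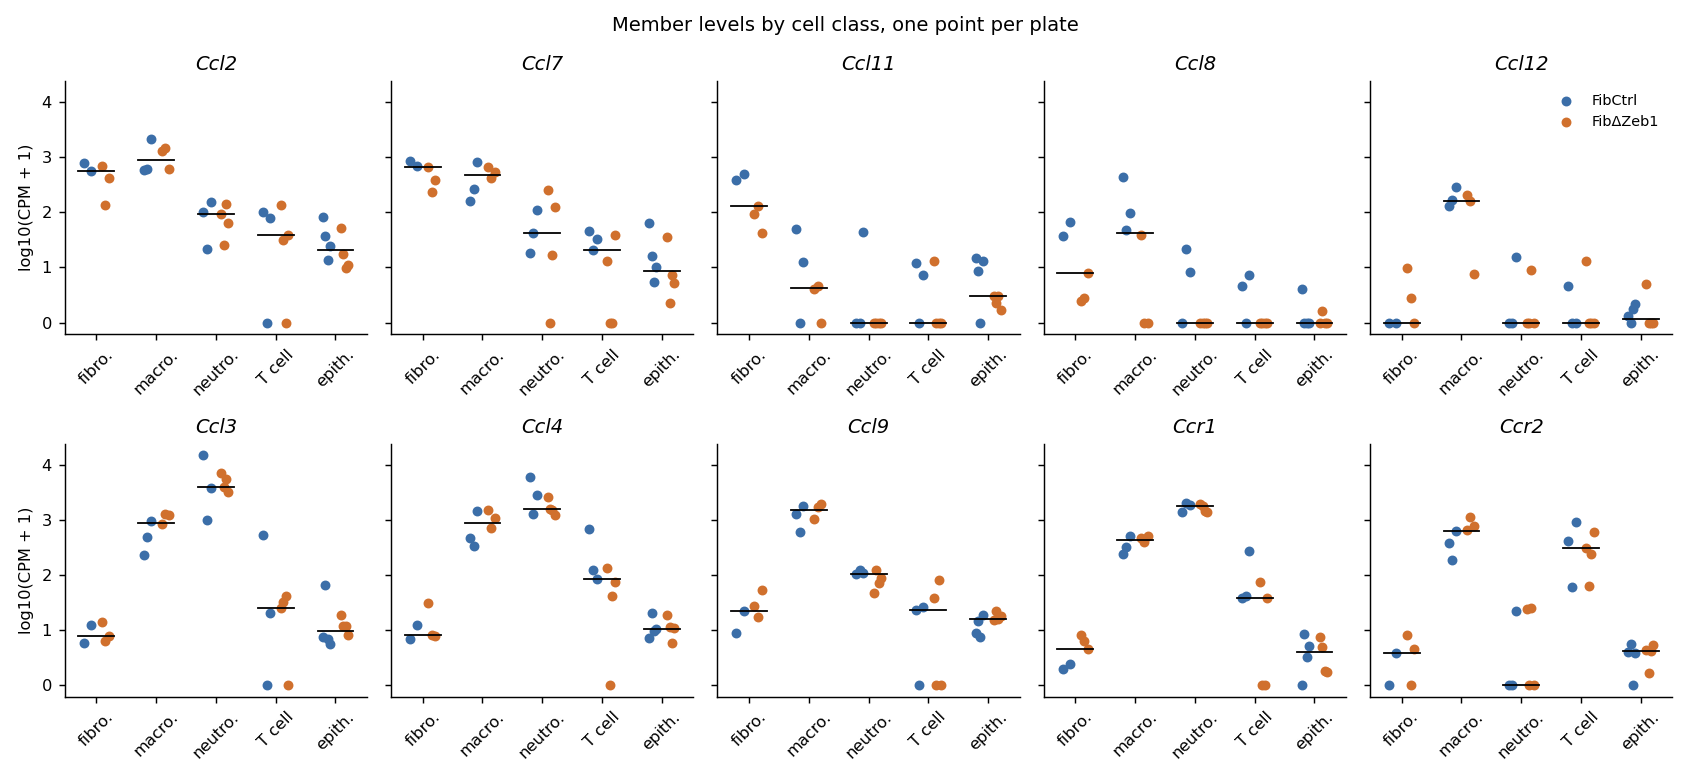
Level of each of the 10 genes by cell class, as log10(CPM + 1) on the vertical axis, with 1 point per plate of at least 10 wells and black bars at the median. Ccl11 is high in fibroblasts, Ccl12 and Ccl9 in macrophages, Ccl3, Ccl4 and Ccr1 in neutrophils, and Ccr2 in macrophages and T cells, each against a low epithelial background.

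Ccl3 and Ccl4 (MIP-1α and MIP-1β), inflammatory chemokines of which Ccl3 is a ligand of Ccr1, were highest in neutrophils. Ccl3 stood at 14840, 989 and 3775 CPM on FibCtrl replicates 2, 3 and 4 and at 7046, 3983, 5571 and 3180 on FibΔZeb1 replicates 1 to 4. The mean was 5626 ± 4482 (SD, n = 7) against 824 ± 404 (SD, n = 6) in macrophages, and neutrophils were the higher on 5 of 5 plates. FibCtrl plates thus held both the highest and the lowest neutrophil value. Ccl4 averaged 2448 ± 1728 (SD, n = 7) in neutrophils and 920 ± 488 (SD, n = 6) in macrophages, again higher in neutrophils on 5 of 5 plates. T cells averaged 92.4 for Ccl3, but on FibCtrl replicate 1 a single well held 141 of the 143 transcripts, and without that plate the mean was 19.2. For Ccl4 the corresponding well held 176 of 186 transcripts, and the T cell mean was 163 with and 75.6 without the plate. Cxcl2, Tnfsf14, Hk3, Nlrp3 and Cd33 were most like Ccl3 (r = 0.87 to 0.89 over 40 sums).

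Ccl9 was highest in macrophages, at 1278, 591 and 1749 CPM on FibCtrl replicates 1, 3 and 4 and at 1027, 1731 and 1903 on FibΔZeb1 replicates 1, 3 and 4. The macrophage range did not overlap that of neutrophils, which averaged 94.7 ± 28.6 (SD, n = 7). Fibroblasts (24.7 ± 16.8, SD, n = 5), T cells (23.6 ± 29.2, SD, n = 7) and epithelial wells (14.2 ± 4.90, SD, n = 8) were not separated.

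The receptors divided the myeloid cells. Ccr1, a receptor for Ccl3, Ccl7 and Ccl9, was highest in neutrophils with little spread between plates (1681 ± 278, SD, n = 7) and did not overlap macrophages (404 ± 107, SD, n = 6). T cells averaged 65.5 ± 93.9 (SD, n = 7) for Ccr1, or 31.3 without FibCtrl replicate 4. Ccr2 was nearly missing from neutrophils, with 9.81 ± 12.2 (SD, n = 7) and 0 transcripts on 4 plates. It stood at 374, 186 and 614 in macrophages of FibCtrl replicates 1, 3 and 4 and at 658, 1134 and 780 in those of FibΔZeb1 replicates 1, 3 and 4. T cells followed at 370 ± 302 (SD, n = 7), below macrophages on 4 of 6 plates. Fibroblasts held Ccl3 at 8.33 and Ccl4 at 12.4 beside epithelial means of 16.03 and 10.9, and both receptors were at the epithelial level, with means of 3.69 for Ccr1 and 2.72 for Ccr2. The 32 dendritic wells reached 10 on FibΔZeb1 replicate 1 only, where they held Ccr1 at 537 and Ccr2 at 400.

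Within classes, levels differed between clusters, which were drawn without these genes but from the same wells, so the values are a description. Fibroblasts fell into a cluster led by Dpt, Sfrp4 and Lum (67 wells), a cluster led by Tnc, Acta2 and Tagln (35 wells) and a shallower cluster led by Inhba and Spp1 (48 wells). The Dpt and Lum cluster held the most Ccl2 (883 CPM against 333 and 40.2), Ccl7 (946 against 306 and 57.9) and Ccl11 (471 against 67.3 and 40.2) over all plates pooled, although the clusters hold the genotypes in unequal shares. FibCtrl replicate 1 was the only plate with at least 5 wells in both deeper clusters, and there the Dpt and Lum cluster was above the Tnc and Acta2 cluster for Ccl2 (1028 against 533), Ccl7 (1301 against 240) and Ccl11 (635 against 56.6). Ccl8 had 19 transcripts in each of these clusters on that plate, at 32.3 CPM in the Dpt and Lum cluster and 46.8 in the Tnc and Acta2 cluster. In the latter, 10 of them came from 1 well, so the order was not resolved. Over all plates pooled, Ccl8 was 36.3 against 16.4 and 2.52, with the same limit on genotype shares. In neutrophils, the cluster led by Irg1, Il1rn and Cd274 held Ccl3 at 14784 CPM against 2299 in the cluster led by Mmp9 and Il1r2 and 2072 in that led by S100a8 and Retnlg. Ccl4 followed the same order at 5353, 1571 and 1172, whereas Ccr1 was highest in the S100a8 and Retnlg cluster (2169 against 1360 and 1271). On the plates where all 3 neutrophil clusters had at least 5 wells (FibCtrl replicate 4 and FibΔZeb1 replicates 3 and 4), the Il1rn and Cd274 cluster was the highest for Ccl3. That cluster held 15 of 26 neutrophil wells on FibCtrl replicate 2 and 1 of 20 on FibCtrl replicate 3, the plates highest and lowest for Ccl3. The part of the cluster's share in those levels was not tested. In T cells, Ccr2 stood at 567 in the cluster led by Ctla4, Icos and Foxp3 and at 36.4 in the cluster led by Satb1, S1pr1 and Il7r. Macrophages fell into a cluster led by Lyz1 and C1qa (153 wells) and one led by Saa3 and Arg1 (21 wells), of which 16 wells came from FibCtrl replicate 3. On that plate Ccr2 stood at 245 and 117 in these clusters, with all 13 transcripts of the smaller cluster in 1 well, and Ccl7 at 484 and 18.0.

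**Figure D2:**
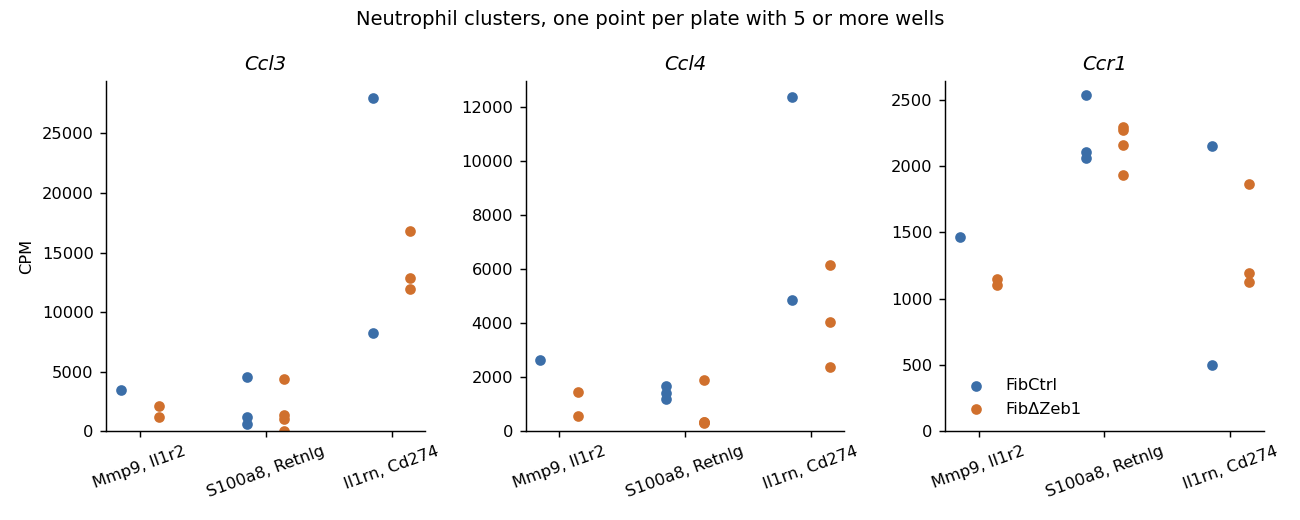
Ccl3, Ccl4 and Ccr1 in CPM (vertical axes, linear from 0) in the 3 neutrophil clusters, with 1 point per plate that had at least 5 wells in the cluster. Ccl3 ranged from 8205 to 27995 in the Il1rn and Cd274 cluster and from 0 to 4534 in the S100a8 and Retnlg cluster.

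The share of wells with at least 1 transcript depends on depth, so wells were also thinned to 1000 transcripts, with shallower wells left out. Unthinned, Ccl2 was seen in 66.7% of fibroblast and 44.8% of epithelial wells, whose median depths were 18292 and 27475 transcripts. After thinning, it was seen in 27.4% (95% exact binomial interval 20.3 to 35.4) of 146 fibroblast wells, 31.3% (24.4 to 39.0) of 166 macrophage wells and 2.59% (1.25 to 4.71) of 386 epithelial wells. Ccl11 was seen in 19.9% (13.7 to 27.3) of fibroblast and 0.777% (0.161 to 2.25) of epithelial wells after thinning, from 43.3% and 13.7% before. Ccl3 was seen in 48.7% (42.1 to 55.3) of 232 thinned neutrophil wells and 30.1% (23.3 to 37.7) of macrophage wells, and in 56.5% and 60.3% before thinning. For Ccr1 the shares were 69.4% (63.0 to 75.3) in neutrophils and 37.3% (30.0 to 45.2) in macrophages. The intervals cover counting error only and take wells, not mice, as their units.

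**Figure D3:**
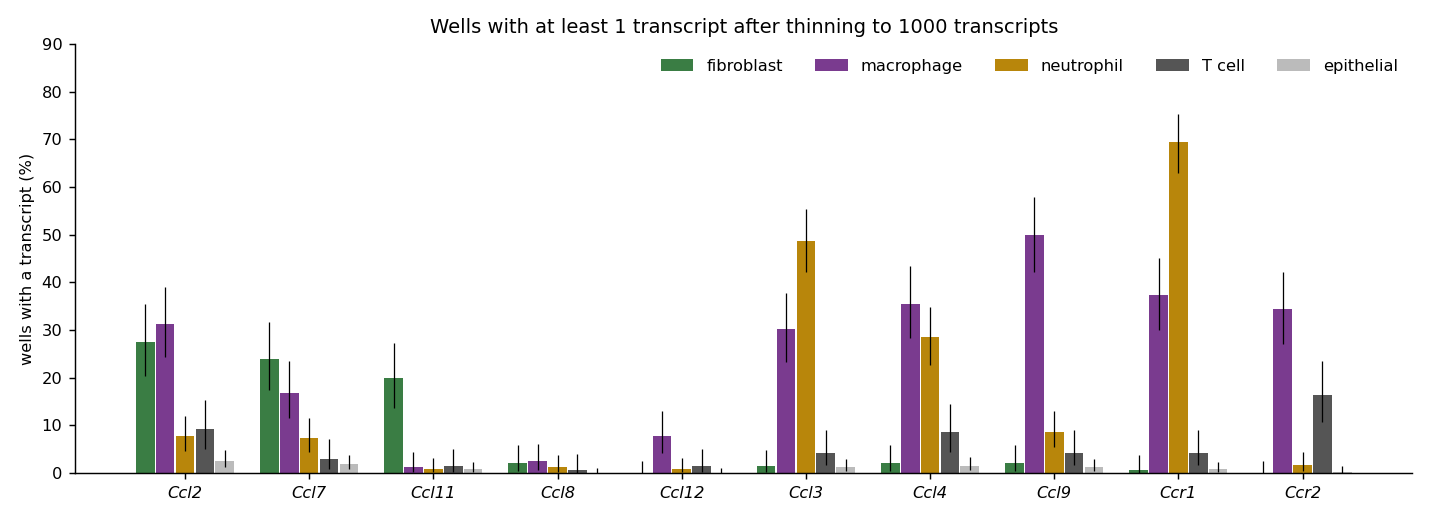
Share of wells (vertical axis, in percent, from 0) with at least 1 transcript of each gene after thinning each well to 1000 transcripts, by cell class, with 95% exact binomial intervals as bars. Ccr1 in neutrophils is the highest share at 69.4%, and every share of epithelial wells is at or below 2.59%.

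The design then asks whether loss of Zeb1 from fibroblasts changed these genes in the fibroblasts themselves or in the immune cells around them. Counts were summed per class and plate and compared with edgeR's quasi-likelihood test, with Benjamini-Hochberg adjustment over all genes tested. In fibroblasts, none of the 5 members tested (Ccl2, Ccl7, Ccl11, Ccl8 and Ccl9) passed an adjusted p of 0.05, where the background was 0.0122% of 8205 genes. The 1 gene called was Aldh1a2, named after its values were seen. At an unadjusted p under 0.05 there were 486 genes and 2 of the 5 members, Ccl8 and Ccl11.

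These 2 members had the lowest p values. The log2 fold change of FibΔZeb1 against FibCtrl was -2.33 (SE 0.40) for Ccl11, with an adjusted p = 0.209 by edgeR, and -4.19 (SE 0.64) for Ccl8, with an adjusted p = 0.200 by edgeR. Ccl8 rests on 84 transcripts against 4, so its fitted change depends on the prior count and is no bound. With plates of 5 or more wells let in, which adds FibCtrl replicate 3 and FibΔZeb1 replicate 2, Ccl11 was -0.999 (adjusted p = 0.9999 by edgeR) and Ccl8 was not tested. On the plates kept, Ccl11 was lower within both flow cells. It was lower by 297 CPM on flow cell 1 (replicate 1 of each genotype) and by 413 on flow cell 2 (FibΔZeb1 replicates 3 and 4 against FibCtrl replicate 4). The plates left out did not follow this, with 485 on FibΔZeb1 replicate 2 against 289 on FibCtrl replicate 2 and 0 on FibCtrl replicate 3. DESeq2 on the same sums called both members (adjusted p = 0.00125 for Ccl11 and 0.00876 for Ccl8), and 36 genes in all. Ccl2 (-0.76, SE 0.57) and Ccl7 (-0.88, SE 0.42) were not separated from 0 by the test, and Ccl9 was 1.03 (SE 0.66). With 1 plate left out, Ccl2 ranged from -1.34 to -0.33 and Ccl7 from -1.34 to -0.58. The median over the 5 members was -0.88 beside -0.0017 over all genes tested.

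The Dpt and Lum cluster, in which Ccl11 was the higher on FibCtrl replicate 1, made up 56.3% of the 87 FibCtrl and 28.6% of the 63 FibΔZeb1 fibroblast wells pooled over plates. By plate, it held 26 of 49 and 21 of 26 wells on FibCtrl replicates 1 and 4. On FibΔZeb1 replicates 1, 3 and 4 it held 2 of 24, 6 of 17 and 9 of 16. Over all fibroblast wells, Ccl11 stood at 390 and 499 CPM on FibCtrl replicates 1 and 4 and at 93.2, 132 and 41.7 on FibΔZeb1 replicates 1, 3 and 4. Within that cluster Ccl11 stood at 635 and 547 on FibCtrl replicates 1 and 4 and at 300 and 53.0 on FibΔZeb1 replicates 3 and 4, with 6 to 26 wells per plate. A fit on that cluster alone, chosen after the data were seen, gave -1.73 (SE 0.62, adjusted p = 0.716 by edgeR) for Ccl11 and -2.86 (SE 0.78, adjusted p = 0.460 by edgeR) for Ccl8. The part of the cluster's share in the difference over all fibroblast wells was not tested.

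**Figure D4:**
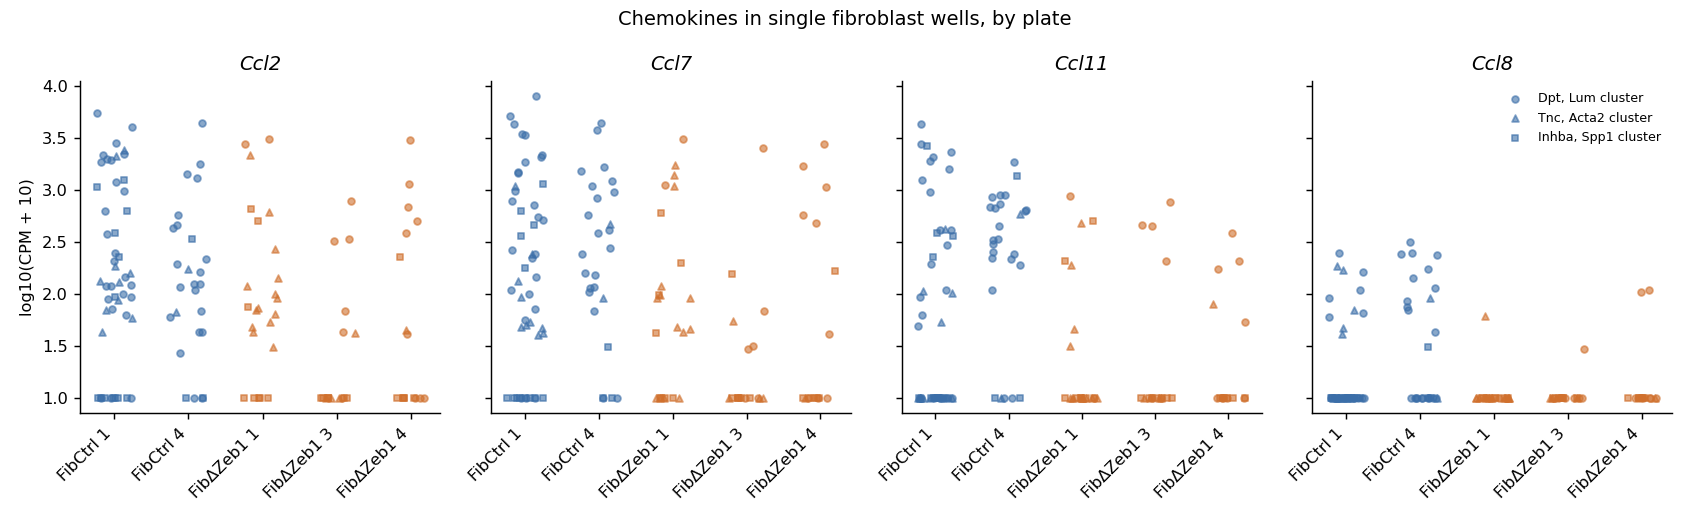
Ccl2, Ccl7, Ccl11 and Ccl8 in each fibroblast well, as log10(CPM + 10) on the vertical axis, by plate, with marker shape for the cluster and wells without a transcript at 1. Ccl8 was found in 11 and 13 wells per FibCtrl plate against 1, 1 and 2 wells per FibΔZeb1 plate.

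In macrophages, none of the 9 members tested was called, and the background was 0% of 4470 genes by edgeR, with 164 genes at an unadjusted p under 0.05 and 1 gene called by DESeq2. Ccl8 (-3.20, SE 1.003), Ccr2 (1.13, SE 0.38) and Ccl3 (0.98, SE 0.41) had an unadjusted p under 0.05, and each had an adjusted p = 0.999 by edgeR. Ccr2 was higher on each of the 3 FibΔZeb1 plates kept than on the 3 FibCtrl plates kept. The share of all genes that split in this way on so few plates was not counted. On these plates Ccr2 was higher by 284 CPM within flow cell 1 (replicate 1 of each genotype) and by 558 within flow cell 2 (replicates 3 and 4 of each). The plates left out did not follow this. FibΔZeb1 replicate 2, with 5 macrophage wells, stood at 393 CPM, below FibCtrl replicate 4. FibCtrl replicate 2, with 1 macrophage well and 3 transcripts, stood at 1280 CPM, above all FibΔZeb1 plates kept. With 1 plate left out, Ccl8 was -1.85 without FibCtrl replicate 1, where its unadjusted p was 0.065, and -8.27 without FibΔZeb1 replicate 1, while Ccr2 ranged from 0.80 to 1.59 and Ccl3 from 0.63 to 1.53. The cluster led by Saa3 and Arg1 held 26.2% of FibCtrl and 3.67% of FibΔZeb1 macrophage wells, and 76.2% of its wells came from 1 plate; its part in the Ccr2 difference was not tested. Ccl2 (0.03, SE 0.48), Ccl7 (0.35, SE 0.48), Ccl12 (-0.57, SE 0.62), Ccl4 (0.55, SE 0.47), Ccl9 (0.37, SE 0.37) and Ccr1 (0.34, SE 0.29) did not pass the test at an unadjusted p of 0.05 either. The median over the 9 members was 0.35 beside -0.02 over all genes tested.

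In neutrophils, Ccl3 (-0.44, SE 0.67), Ccl4 (-0.9998, SE 0.50) and Ccr1 (-0.14, SE 0.36) were tested and none was called, where the background was 0.0944% of 1059 genes, the gene called being BC018473. The sign of Ccl3 rests on 1 plate, since without FibCtrl replicate 2 its log2 fold change was 1.08. The same plate set the size for Ccl4, which was -0.22 without it, and -0.34 with classes from marker sums. In T cells only Ccr2 was frequent enough to test (-0.72, SE 0.62, adjusted p = 0.991 by edgeR), and without FibCtrl replicate 4 it was 0.09. The background there was 0.101% of 986 genes, the gene called being Stmn1.

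**Figure D5:**
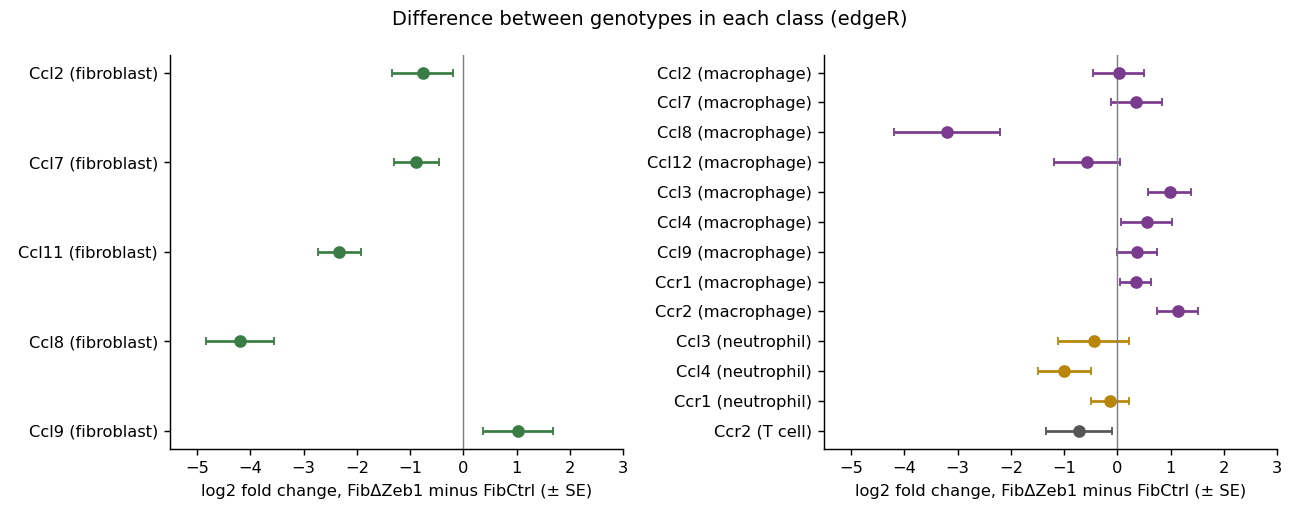
Log2 fold change of FibΔZeb1 against FibCtrl (horizontal axis) with its standard error as bars, for the members tested in fibroblasts (left) and in macrophages, neutrophils and T cells (right). Ccl8 and Ccl11 in fibroblasts lie at -4.19 and -2.33, and none of the values shown passed an adjusted p of 0.05.

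Whether the genotype difference itself differed between fibroblasts and macrophages was tested by an interaction term with the plate as a block. None of the 10 members was called, and the background was 0% of 8245 genes by edgeR, with 411 genes at an unadjusted p under 0.05 and 2 called by DESeq2. The interaction was 4.43 (SE 1.31, adjusted p = 0.818 by edgeR) for Ccl12, which is close to 0 in fibroblasts, and -1.42 (SE 0.62, adjusted p = 0.969 by edgeR) for Ccl7. Fibroblasts held 0 Ccl12 transcripts on the FibCtrl plates kept and 7 on the FibΔZeb1 plates kept. Effects in the 2 classes were therefore not shown to differ for any member.

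Other genes of the family were described by a fixed list of 22 further CC chemokines and receptors. In fibroblasts 3 were frequent enough to test and none was called, the largest changes being those of Ccl6 (-0.77, SE 0.89) and Ccrl2 (-0.33, SE 0.69). In macrophages 5 were tested and none was called, with Ccl24 at -1.49 (SE 1.04) and Ccrl2 at 0.21 (SE 0.26). Of 12 genes linked to NF-κB, a transcription factor known to drive several of these chemokines, 12 were tested in fibroblasts and none was called, with a median of -0.48 beside -0.0017 over all genes. Ptgs2 (-1.25, SE 0.56) and Il1b (1.17, SE 0.68) had the largest changes there. In macrophages 11 of the 12 were tested, none was called and the median was 0.0021, with Il6 at -1.48 (SE 0.997) and Tnf at 1.01 (SE 0.54). In neutrophils 10 were tested and none was called, with Tnf at 1.24 (SE 0.51) and Icam1 at 1.04 (SE 0.45). In T cells, 2 of the CC list (Ccr7 at 0.91, SE 0.81, and Ccl5 at -0.05, SE 0.91) and 3 of the NF-κB list were tested, and none was called.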

How the data were processed

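The deposited tables hold, per well, estimated counts of transcripts that the authors made from unique molecular identifiers with a correction for identifier collisions, after alignment to the GRCm38 transcriptome. The submitters' processing notes name BWA and Cell Ranger 2.1.1. Strand is not stated. The deposited list of plates was read only as labels, and sort gates were not assigned to wells. Spike-in and mitochondrial rows entered only the shares given per plate and the filter on wells. Wells with at least 500 transcripts and a mitochondrial share at most 3 scaled median absolute deviations above the plate's median were kept. They were clustered (2000 variable genes, 20 components, 15 neighbours, leidenalg 0.10.2) without 57 chemokine and receptor genes and named from marker genes, which left 404 wells unnamed. Fibroblast wells with 2 or more Ptprc or Epcam transcripts (36) were removed. No doublet caller was run. Levels are transcripts per 1000000 of a class and plate (CPM). Sums were rounded and tested with edgeR 4.0.16 (TMM, filterByExpr, quasi-likelihood), and DESeq2 1.42.0 was an alternative. Each plate is 1 mouse. Replicates 1 and 2 of both genotypes ran on flow cell 1, and 3 and 4 on flow cell 2. The script was tested on simulated data. Levels of all 10 members were taken in fibroblast, macrophage, neutrophil, T cell, epithelial, B cell and dendritic wells. The other named classes were not described. From the companion lists, genes past the threshold are named, or the 2 with the largest change where none passed it. The 5 genes most like Ccl2, Ccl3 and Ccl8 are named too. Members and lists were chosen with earlier results of these data known. The driver mutations of the organoids are not reported here.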

Additional observations from a re-analysis of the deposited data

Results flagged for a closer look

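Among 37 groups of 4 plates (neutrophil, T cell and epithelial wells), 8 values lay far from the others of their group. A chance rate of about 1 in 20 groups need not hold for counts near 0, where 1 transcript beside plates at 0 was flagged. In neutrophil and T cell wells, 3 of the 8 values rest on a single transcript each. Ccl12 in neutrophil wells was 7.96 CPM on FibΔZeb1 replicate 3 and 0 on the other plates of that genotype. Ccl11 and Ccl12 in T cell wells were each 12.2 CPM on FibΔZeb1 replicate 1 and 0 on the other FibΔZeb1 plates. In epithelial wells, Ccl3 was 64.3 CPM on FibCtrl replicate 2 against 4.66 to 6.49 on the other FibCtrl plates. Ccl7 was 34.3 CPM on FibΔZeb1 replicate 1 against 1.31 to 6.37 on the others of that genotype. Ccl12 was 3.96 CPM on FibΔZeb1 replicate 1, from 6 transcripts, and Ccl8 was 3.08 CPM on FibCtrl replicate 1, from 9 transcripts, with 0 on the other plates of the genotype in both cases. Ccl8 was 0.654 CPM on FibΔZeb1 replicate 2, from 1 transcript, and 0 on the other FibΔZeb1 plates.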

How the results depend on the processing

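No member was called by edgeR under the settings of the report, and some were under alternatives. The count of genes called in fibroblasts (1) was 36 with DESeq2, 323 with no gene filter, 28 with the flow cell as covariate, 19 with the replicate block, 2 with classes from marker sums and 0 to 4 with 1 plate left out. In macrophages (0) it was 1 with DESeq2, 40 with no filter and 0 to 1 with 1 plate left out. In neutrophils (1) it was 20 with no filter and 1 to 6 with 1 plate left out, 6 being without FibCtrl replicate 2. In T cells (1) it was 3 with DESeq2, 15 with no filter, 3 with marker sums, 0 with RLE size factors, the flow cell, the replicate block or a minimum of 5 wells, and 0 to 5 with 1 plate left out. For the interaction (0) it was 2 with DESeq2, 32 with no filter, 5 with marker sums and 0 to 2 with 1 plate left out. Ccl8 in fibroblasts passed with DESeq2, no filter and the flow cell, Ccl11 with DESeq2 and no filter, and Ccl8 in macrophages with no filter; the cause was not tested. Over 237 refits of members within classes, 10 changed sign. Leaving out 1 plate gave ranges of -0.27 to 0.85 for Ccl2 and -0.0017 to 1.25 for Ccl7 in macrophages, -1.01 to 1.08 for Ccl3 and -0.28 to 0.015 for Ccr1 in neutrophils, and -1.17 to 0.094 for Ccr2 in T cells. Ccl2 in macrophages was -0.12 with a minimum of 5 wells, and Ccl3 in neutrophils 0.034 with the replicate block. Of 100 refits of the interaction, 11 changed sign, with ranges of -2.18 to 0.20 for Ccl2, -2.06 to 5.71 for Ccl8, -0.22 to 0.65 for Ccl4, -0.58 to 1.86 for Ccl11 and -1.06 to 2.73 for Ccr2 with 1 plate left out. Ccl8 was 1.09 there with DESeq2, and Ccl4 was -0.039 with a minimum of 5 wells and -0.25 with marker sums. Plates of the same number did not deviate together in every pair (correlations of 0.18 and 0.31 in fibroblasts and -0.26 to 0.50 in neutrophils), so the numbers were not taken as pairs. Marker sums gave 74.1% of wells the same class. Mean levels moved by more than 1 SD in 2 of 330 alternatives.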
